A study of Rattus norvegicus with 9 samples.

Results

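Sphingosine-1-phosphate (S1P) is a signalling lipid, and the genes described here are its receptors and the proteins that make, move and degrade it. Rows were taken by gene name from the expression table: 4 receptors (S1pr1, S1pr2, S1pr3 and S1pr5), the exporter Spns2, the kinases Sphk1 and Sphk2, the phosphatase Sgpp1 and the lyase Sgpl1. Each of these 9 names was found once among 34890 listed loci. RNA came from the ipsilateral L3-L6 spinal cord of wild-type male Sprague Dawley rats, in 3 groups of 3 samples that the labels call biological replicates. JA rats had a sham operation and received saline. SNI rats had spared nerve injury, in which the tibial and common peroneal branches of the sciatic nerve are tied and cut while the sural branch is left, and received saline. PLM rats had the same injury and received paeoniflorin at 20.65 mg/mL with liquiritin, plant glycosides from peony and licorice. The labels give liquiritin as 3.98, 3.99 and 3.100 mg/mL for PLM replicates 1, 2 and 3, while the study describes a single dose for the group. Dosing was by mouth, and tissue was taken on day 21.

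S1P is formed when a sphingosine kinase phosphorylates sphingosine, which itself comes from ceramide. It leaves some cells through a transporter and acts on a family of G protein-coupled receptors, or it is returned to sphingosine by phosphatases and cut irreversibly by the lyase. In the central nervous system S1pr1 is known from astrocytes and endothelium and S1pr5 from oligodendrocytes, and receptor modulators of this family are used in multiple sclerosis.

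Expression was given as TPM, transcript abundances scaled for gene length and to the same total in every sample. TPM hold no record of sequencing depth, which is therefore unknown here, as is the counting error. Groups were compared in pairs with limma on log2(TPM + 1), a scale that understates changes of genes with low TPM, and a gene was called at a Benjamini-Hochberg adjusted p under 0.05. Every comparison was made on the values as deposited and again after each sample was centred on its median log2(TPM + 1). The reason for both lies in the whole table: in PLM versus SNI, the log2 fold changes of the genes tested had a median of -0.21 as deposited and 0.04 after centring. The 13 mitochondrial protein genes held 23.7 to 26.1% of TPM in SNI and 31.3 to 32.8% in PLM, with 25.3 to 32.8% in JA. Marker genes of oligodendrocytes, neurons, astrocytes, microglia and endothelium averaged at least 1 TPM over the 9 samples, in keeping with the labelled tissue. Schwann cell markers, which belong to nerve roots, varied most, from a summed 125.53 TPM in JA replicate 2 to 7897.18 TPM in JA replicate 3. Pearson's r between samples across genes was 0.955 to 0.963 within groups and 0.946 to 0.966 between groups, so the pairs overlapped.

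S1pr1, the receptor that couples to Gi proteins, was the only S1P gene called in any comparison. It was lower in all 3 PLM samples than in all 3 SNI samples. None of the 9 genes was called between SNI and JA or between PLM and JA. The promoter side of S1pr1 is shown because this was the gene called. The 250 bases before its start lie on the minus strand at chr2:206314071-206314320 of GRCr8 (RefSeq), and are written 5′ to 3′ with the match to CACCC, the core of Krüppel-like factor sites, in capitals:

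S1pr1: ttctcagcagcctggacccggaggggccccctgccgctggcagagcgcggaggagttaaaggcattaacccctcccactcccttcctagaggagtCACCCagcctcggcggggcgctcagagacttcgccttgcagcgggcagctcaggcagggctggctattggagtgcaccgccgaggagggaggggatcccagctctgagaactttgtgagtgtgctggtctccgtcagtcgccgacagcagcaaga

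The window is 64.8% G and C, against a median of 51.2% over the windows of all genes in that table. CACCC was searched on both strands and occurs once, at 155 to 151 bases before the start. It is found in 49.2% of 33469 windows of this length, so it is common in such windows. The letters of the GC box (GGGCGG, in 30.5% of windows), of a STAT-type site (TTCNNNGAA, 7.67%) and of the TATA box (TATAAA, 12.9%) are not in this window on either strand. A match is a description of letters, not a bound site.

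S1pr1 stood at 52.00, 42.68 and 24.46 TPM in JA replicates 1 to 3. It was 56.06, 64.71 and 48.24 TPM in SNI and 27.00, 22.81 and 26.70 TPM in PLM. The lowest SNI sample lay above the highest PLM sample, whereas the JA samples spanned the gap between these groups. JA averaged 39.7 ± 14.0 TPM, SNI 56.3 ± 8.24 and PLM 25.5 ± 2.34 (all errors are SD over the 3 samples of a group). S1pr1 fell in PLM versus SNI, with a log2 fold change of -1.11 (SE 0.12, 95% interval -1.40 to -0.81, limma adjusted p = 0.00786). Relative to the median shift of all genes the difference was -0.90. After median centring it was -0.86 (SE 0.13, interval -1.17 to -0.55, adjusted p = 0.0496), just inside the threshold. That call rests on all 6 samples: on centred values, leaving out any 1 of them gave adjusted p from 0.0748 to 0.164 with log2 fold changes from -0.95 to -0.75. On the values as deposited S1pr1 stayed called without any 1 sample (adjusted p from 0.0124 to 0.0409), and the call was lost in a fit to all 9 samples (adjusted p = 0.0501) and under 1 further setting, given with the processing alternatives.

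The share of all genes called gives the scale for this count. In PLM versus SNI, 2110 of 15474 genes tested were lower, or 13.6%, and 38 were higher, or 0.246%. Of the 8 S1P genes tested, 1 was lower and none was higher, so the count is near the share of all genes. After centring, 0.685% of genes were lower and 0.129% higher, and the S1P genes again gave S1pr1 alone. By the thresholds of the study's methods (unadjusted p under 0.05 with a log2 fold change beyond 1 in either direction), 1.42% of genes were lower, S1pr1 among them; on centred values its fold change misses the second of these thresholds. The fold change of S1pr1 stood at percentile 1.64 of all genes tested.

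**Figure D1:**
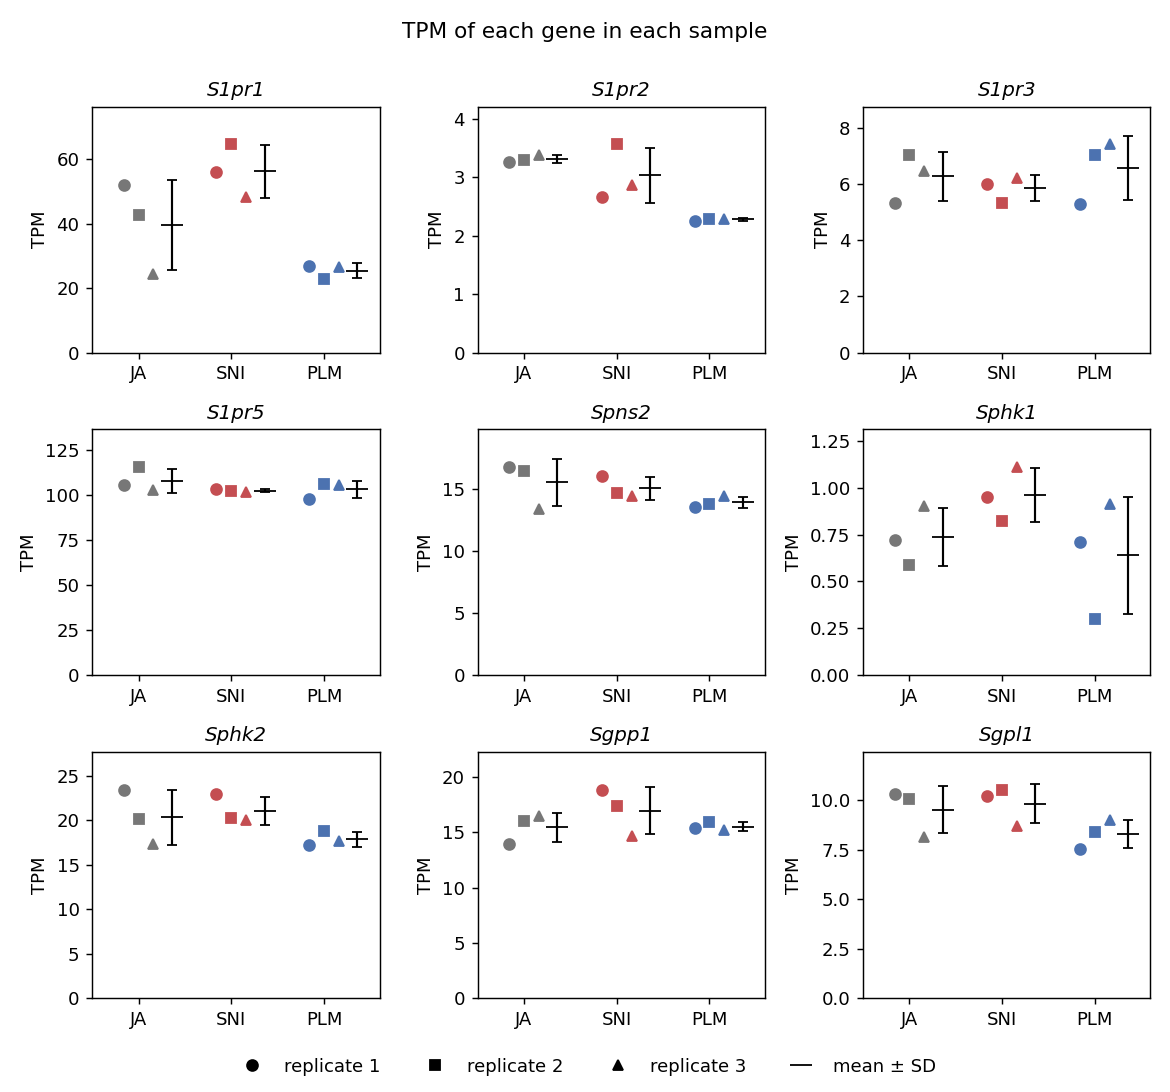
TPM of each of the 9 S1P genes (vertical axes, each from 0) in the JA, SNI and PLM groups, with symbols for replicates 1 to 3 and a dash with bars for the mean ± SD. S1pr1 lies between 48.24 and 64.71 TPM in SNI and between 22.81 and 27.00 TPM in PLM, while S1pr5 stays between 97.73 and 115.79 TPM throughout.

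Astrocyte markers moved with S1pr1. The summed TPM of 12 astrocyte markers (Gfap, Aqp4, Slc1a2, Slc1a3, Aldh1l1, Gja1, Gjb6, Aldoc, Sox9, Fgfr3, Ntsr2 and Slc4a4) was 3203.81 to 3541.38 in SNI, 1539.41 to 1866.8 in PLM and 1881.34 to 3684.22 in JA. None of the 12 was at 0. In PLM versus SNI 11 of 12 were called lower as deposited, beside 13.6% of all genes. Their median log2 fold change was -1.35, against -0.21 for all genes. After centring 9 were called lower, beside 0.685% of all genes, with a median of -1.11 against 0.04. JA replicate 3, which had the lowest S1pr1 of the group, also had its lowest astrocyte sum. S1pr1 minus the mean log2 value of these markers averaged -0.61 ± 0.09 for JA, -0.50 ± 0.09 for SNI and -0.27 ± 0.18 for PLM. By sample this difference was -0.32, -0.43 and -0.08 in PLM against -0.56, -0.40 and -0.54 in SNI, so the PLM samples overlapped the SNI samples and were not lower. The part of the astrocyte markers in the S1pr1 result was not tested, and in bulk tissue fewer cells of a type and less RNA per cell cannot be told apart.

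Endothelium is the other known site of S1pr1. The 11 endothelial markers listed (Pecam1 was not matched) summed to 398.41 to 425.03 TPM in SNI, 424.32 to 488.17 in PLM and 450 to 583.37 in JA. None of them was called in PLM versus SNI as deposited, with a median log2 fold change of 0.10. After centring 1 was called higher, beside 0.129% of all genes. The remaining lists are given for comparison. Meninges and fibroblast markers had 2 of 7 called lower (median log2 fold change -0.58), microglial markers 1 of 12 (0.03), and neuronal markers none of 12 (-0.26), beside 13.6% of all genes called lower. After centring none of these genes was called, and the medians were -0.33, 0.28 and -0.01. Schwann cell markers had none of 6 called (median -0.66), with sums from 579.73 to 4494.74 TPM in SNI and from 276.92 to 3308.49 TPM in PLM.

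**Figure D2:**
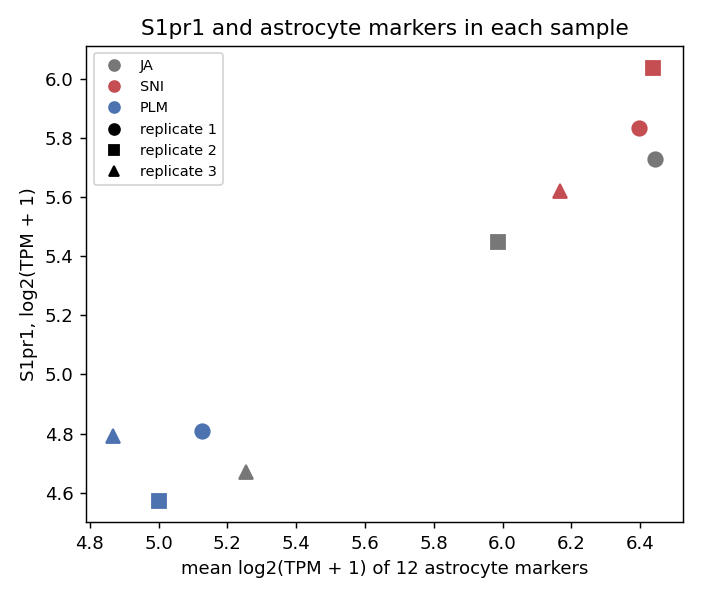
S1pr1 as log2(TPM + 1) (vertical axis) against the mean log2(TPM + 1) of 12 astrocyte markers (horizontal axis), one point per sample, coloured by group and shaped by replicate. The PLM samples and JA replicate 3 lie at the lower left, with marker means from 4.87 to 5.25, and the other JA and the SNI samples at the upper right, from 5.99 to 6.44.

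The genes most like S1pr1 over the 9 samples were Mfsd1 (Pearson's r = 0.991), Oxct1 (0.989), Ttyh1 (0.989), Amot (0.986) and Slc41a1 (0.982). These r values are on centred log2(TPM + 1) over 9041 genes with a mean of at least 5 TPM. The 9 points share their groups and their astrocyte marker levels, so r is a description and no p is given. Ttyh1, a chloride channel of glia, averaged 91.5 TPM in JA samples, 135.7 in SNI samples and 49.3 in PLM samples. On values as deposited, 4 of these 5 genes were again among the 5 most alike.

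S1pr5, the receptor of oligodendrocytes, was the most abundant S1P gene and the least variable receptor. It stood at 105.73, 115.79 and 102.81 TPM in JA, 103.71, 102.58 and 101.78 TPM in SNI, and 97.73, 106.18 and 105.94 TPM in PLM. The groups overlapped, with means of 108.1 ± 6.81, 102.7 ± 0.970 and 103.3 ± 4.81 TPM. Its log2 fold change against SNI in PLM was 0.01 (95% interval -0.13 to 0.14, limma adjusted p = 0.933). After centring it was 0.25 (SE 0.05, interval 0.14 to 0.37) and was not called (adjusted p = 0.0854). S1pr5 thus moved between the scales by the shift of all genes. The 12 oligodendrocyte markers had none called in this comparison, with sums of 47234 to 49533 TPM in SNI and 50976 to 51881 in PLM. The genes most like S1pr5 on centred values were Mir2964 (r = 0.982), Rgs4 (0.974), Mt-nd1 (0.963), Mt-cyb (0.962) and Cldn5 (0.959). None of these 5 was among its 5 most alike on values as deposited.

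S1pr3, a receptor that couples to several G protein classes, was among the less abundant S1P genes. It was 5.33, 7.05 and 6.47 TPM in JA, 6.01, 5.34 and 6.21 TPM in SNI, and 5.28, 7.05 and 7.42 TPM in PLM. The lowest PLM sample lay below every SNI sample and the other PLM samples above them. The log2 fold change against SNI in PLM was 0.14 as deposited (SE 0.13, limma adjusted p = 0.469) and 0.38 after centring (adjusted p = 0.173).

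S1pr2, the receptor known for coupling to several G proteins, was lower still. It was 3.25, 3.30 and 3.38 TPM in JA, 2.66, 3.56 and 2.87 TPM in SNI, and 2.25, 2.29 and 2.29 TPM in PLM. All PLM samples lay below all samples of the other groups, and the values within PLM and within JA hardly differed. Against SNI the log2 fold change was -0.29 (SE 0.12, limma adjusted p = 0.140) as deposited and -0.04 (adjusted p = 0.887) after centring. Against JA it was -0.40 (SE 0.11, interval -0.66 to -0.13, adjusted p = 0.344) and -0.27 (adjusted p = 0.498). Groups without overlap were frequent here: 41.9% of all genes tested lay lower in every PLM than every SNI sample, and 15.7% lower in every PLM than every JA sample. S1pr1, S1pr2 and Sphk2 were the 3 S1P genes of the former kind and S1pr2 the 1 of the latter.

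Within a sample the receptors can be set against one another, and a whole-sample scaling cancels. S1pr4, the remaining receptor and known from lymphoid cells, was at 0.14 to 0.46 TPM and is included in the sum. S1pr5 made up 68.9 ± 5.64% of summed receptor TPM in JA, 61.1 ± 2.88% in SNI and 74.9 ± 1.49% in PLM. S1pr1 made up 31.2, 25.2 and 17.8% in JA, 33.2, 36.7 and 30.3% in SNI, and 20.4, 16.5 and 18.7% in PLM. The S1pr1 share was thus lower in all PLM than in all SNI samples, and JA spanned both. An exact two-sided permutation test of the share gave p = 0.1 for PLM versus SNI, the smallest p that 3 against 3 samples allow, so the design cannot reach 0.05. The same exact permutation test gave 0.2 for SNI versus JA and 0.3 for PLM versus JA, and each was 0.3 after adjustment over 6 comparisons of 2 ratios. The ratio of S1pr5 to S1pr1 averaged 2.98 ± 1.11 for JA, 1.85 ± 0.262 for SNI and 4.08 ± 0.527 for PLM. S1pr3 held 4.02, 3.49 and 4.76% of the sum in JA, SNI and PLM on average, and S1pr2 held 2.12, 1.80 and 1.65%. The sum itself came to 157.8 ± 17.5 TPM for JA, 168.3 ± 8.57 for SNI and 137.9 ± 5.15 for PLM.

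**Figure D3:**
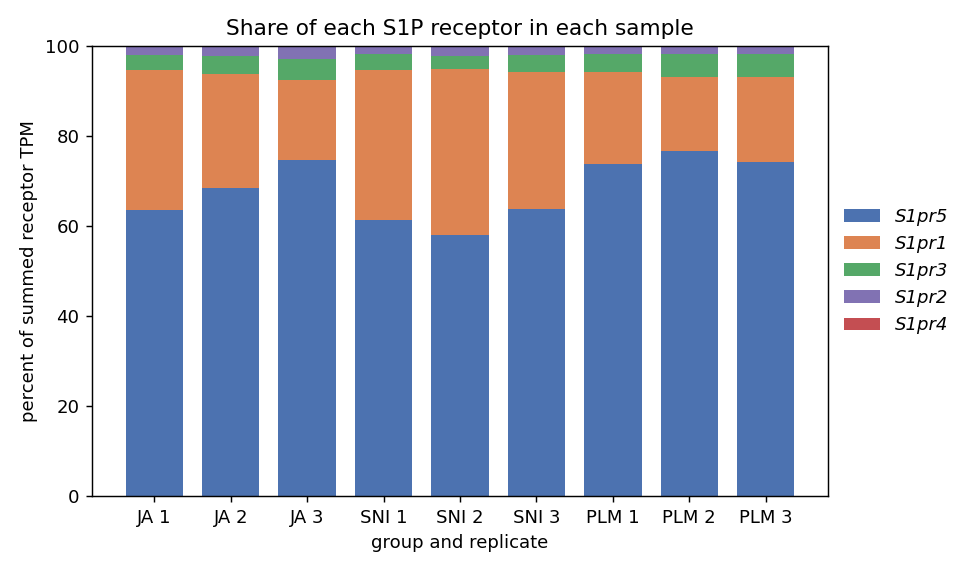
Share of each S1P receptor gene in the summed TPM of S1pr1 to S1pr5 (vertical axis, percent) for each of the 9 samples, stacked to the whole; S1pr4, under 1% in every sample, is too thin to be seen. S1pr1 takes 30.3 to 36.7% in SNI and 16.5 to 20.4% in PLM, and S1pr5 takes the greater part everywhere.

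Spns2, the transporter that exports S1P from endothelium, was 16.78, 16.48 and 13.38 TPM in JA, 16.09, 14.66 and 14.42 TPM in SNI, and 13.58, 13.82 and 14.42 TPM in PLM. The highest PLM sample equalled the lowest SNI sample. Its log2 fold change against SNI in PLM was -0.10 (limma adjusted p = 0.322) as deposited and 0.14 (adjusted p = 0.296) after centring, so its direction depends on the scaling.

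Of the kinases, Sphk2, found largely in nucleus and mitochondria, was the more abundant, at 22.3 ± 3.69 times the TPM of Sphk1 in SNI. Sphk2 was 23.48, 20.22 and 17.34 TPM in JA, 22.93, 20.26 and 20.04 TPM in SNI, and 17.19, 18.81 and 17.66 TPM in PLM. All PLM samples lay below all SNI samples, and the JA samples overlapped both. The log2 fold change against SNI in PLM was -0.22 (SE 0.08, limma adjusted p = 0.0957), close to the median of all genes, and 0.02 (adjusted p = 0.893) after centring.

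Sphk1, the cytosolic kinase, averaged under 1 TPM and did not pass the filter on low values, so its values come from the fit with no filter. It was 0.72, 0.59 and 0.90 TPM in JA, 0.95, 0.82 and 1.11 TPM in SNI, and 0.71, 0.30 and 0.91 TPM in PLM. PLM replicate 2 had the lowest value and the groups overlapped. The log2 fold change against SNI in PLM was -0.27 (limma adjusted p = 0.319) as deposited and -0.04 (adjusted p = 0.905) after centring. As deposited it was -0.11 without PLM replicate 2 and -0.61 with a pseudocount of 0.1, so its size depends on that sample and on the pseudocount. With so few transcripts the ratio of Sphk2 to Sphk1 in PLM, 35.4 ± 23.7, had a wide spread.

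Sgpp1, a phosphatase of the endoplasmic reticulum that returns S1P to sphingosine, was 13.95, 15.99 and 16.44 TPM in JA, 18.87, 17.39 and 14.63 TPM in SNI, and 15.40, 15.95 and 15.23 TPM in PLM. SNI spread widest and enclosed all PLM samples. The log2 fold change against SNI in PLM was -0.11 (limma adjusted p = 0.426) as deposited and 0.13 (adjusted p = 0.516) after centring.

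Sgpl1, the lyase that degrades S1P for good, was 10.33, 10.04 and 8.16 TPM in JA, 10.21, 10.53 and 8.69 TPM in SNI, and 7.55, 8.37 and 8.98 TPM in PLM. The highest PLM sample lay above the lowest SNI sample. The log2 fold change against SNI in PLM was -0.22 (SE 0.10, limma adjusted p = 0.173) as deposited and 0.03 (adjusted p = 0.880) after centring. The ratio of Sgpp1 to Sgpl1 averaged 1.65 ± 0.336 for JA, 1.73 ± 0.106 for SNI and 1.88 ± 0.173 for PLM, and these spreads overlapped.

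The TPM levels of the 9 genes, which are comparable between genes since TPM are per length, kept nearly the same order in every sample. Averaged over the 9 samples, S1pr5 led with 104.7 TPM and was followed by S1pr1 with 40.5, Sphk2 with 19.8, Sgpp1 with 15.98 and Spns2 with 14.8 TPM. Sgpl1 with 9.21, S1pr3 with 6.24, S1pr2 with 2.87 and Sphk1 with 0.779 TPM came after. Each gene was above the next in 9 of 9 samples, except that Sgpp1 was above Spns2 in 7 of 9. Sgpp1 and Spns2 are thus the neighbours whose order was not the same in every sample. Pooled over the groups, the ranges also overlapped for S1pr1 and Sphk2 and for Sphk2 and Sgpp1, although the former of each pair was higher in every sample. The coefficient of variation over the 9 samples was 38.7% for S1pr1, 30.3% for Sphk1 and 4.70% for S1pr5.

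SNI versus JA addresses the injury itself. No S1P gene was called, as was no gene among 15557 tested, or 0%, by limma; 1104 genes had an unadjusted p under 0.05, none of them an S1P gene. S1pr1 had the greatest log2 fold change of the 9, 0.55 (SE 0.27, interval -0.10 to 1.19, adjusted p = 0.614), and 0.43 (adjusted p = 0.889) after centring. Without JA replicate 3, where S1pr1 was 24.46 TPM, the fold change dropped to 0.24 (limma adjusted p = 0.836), and without JA replicate 1 it was 0.77 (adjusted p = 0.249). The size of the S1pr1 difference from sham thus depends on which JA samples are used. Schwann cell markers summed to 7897.18 TPM in JA replicate 3, against 689.63 and 125.53 in JA replicates 1 and 2. Neuronal markers summed to 2946.97 to 5715.69 TPM in JA and 5621.29 to 7133.61 in SNI. The part of tissue content in the comparison with sham was not tested. The other 8 S1P genes ranged from -0.10 (S1pr2) to 0.18 (Sphk1) as deposited. Of all genes tested the median was 0.12. After centring, 751 genes had an unadjusted p under 0.05, among them S1pr5 with a log2 fold change of -0.19 (adjusted p = 0.889).

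PLM versus JA compares treated injured with sham rats, and shares its samples with the comparisons above. By limma 3 of 15349 genes were called, or 0.0195%, and none was an S1P gene. S1pr1 had a log2 fold change of -0.56 (SE 0.26, adjusted p = 0.469) as deposited and -0.43 (adjusted p = 0.569) after centring. Without JA replicate 3 it was -0.86 (limma adjusted p = 0.0765), and without JA replicate 1, the highest of the group, -0.34 (adjusted p = 0.642). S1pr2 was the only one of the 9 with an unadjusted p under 0.05 here, with 1809 such genes in all.

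**Figure D4:**
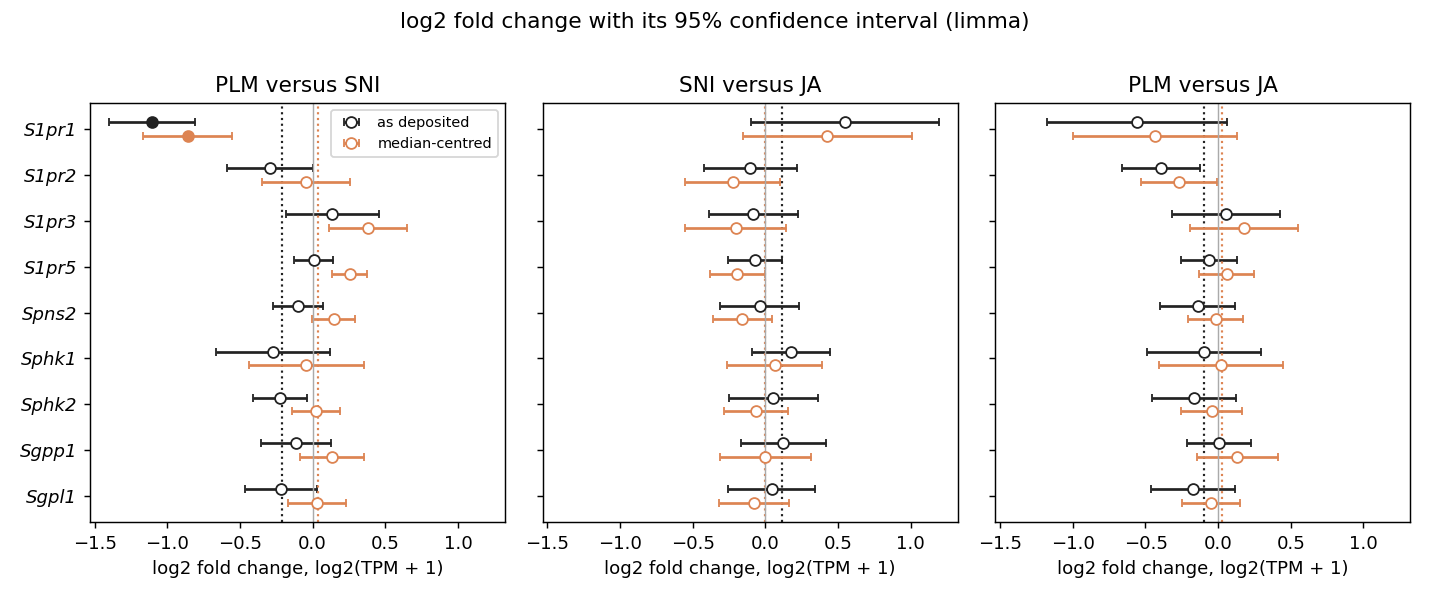
log2 fold change on the log2(TPM + 1) scale (horizontal axes) of the 9 S1P genes in the comparisons PLM versus SNI (left), SNI versus JA (middle) and PLM versus JA (right), as points with 95% confidence intervals, in black as deposited and in orange after median centring; filled points have an adjusted p under 0.05 and dotted lines mark the median of all genes tested. S1pr1 in PLM versus SNI, at -1.11 and -0.86, has the filled points, and most other genes lie near the dotted lines; Sphk1 comes from the fit with no filter.

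Other genes of the pathway were taken from lists and compared in PLM with SNI as well. Of 15 tested genes for S1P export, carriers and breakdown, 6 were lower as deposited, where 13.6% of all genes were, and 1 was lower after centring, where 0.685% were. Their median log2 fold change as deposited was -0.37, against -0.21 for all genes. The gene lower on both scales was Plpp3, a lipid phosphatase that dephosphorylates S1P and lysophosphatidic acid outside the cell, at 46.9 ± 7.28 TPM in SNI and 18.4 ± 1.62 in PLM. Its log2 fold change was -1.30 (limma adjusted p = 0.00557), and -1.05 (adjusted p = 0.0278) after centring. The 12 astrocyte markers had medians of -1.35 and -1.11 on the same scales, and their part in the results of this list was not tested. Etnppl, a phospholyase of phosphoethanolamine, fell from 3.10 to 1.08 TPM (log2 fold change -0.98, adjusted p = 0.0116). The cholesterol transporter Abcg1 fell from 27.3 to 20.8 TPM (-0.38, adjusted p = 0.0184), and Hacd2, a dehydratase of fatty acid elongation, from 41.9 to 30.6 TPM (-0.44, adjusted p = 0.0227). Of these, Etnppl, Abcg1 and Hacd2 were not called after centring (adjusted p = 0.0749, 0.307 and 0.251).

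Of 24 tested genes that supply ceramide and sphingosine, 6 were lower as deposited, beside 13.6% of all genes, and none after centring. Their median log2 fold change as deposited, -0.23, was close to the -0.21 of all genes. Ormdl3, an inhibitor of serine palmitoyltransferase, fell from 46.7 ± 2.16 to 31.8 ± 0.468 TPM (log2 fold change -0.54, limma adjusted p = 0.00787; centred adjusted p = 0.0978). Kdsr, the reductase of the next step, fell from 21.8 to 15.9 TPM (-0.44, adjusted p = 0.0317). Degs2, a dihydroceramide desaturase and hydroxylase, was the gene called higher on centred values (0.50, adjusted p = 0.0451), at 10.1 TPM in SNI and 12.3 in PLM; it is named after its value was seen. Of 19 tested genes of receptor coupling and trafficking, 6 were lower as deposited, again beside 13.6% of all genes, and none after centring; the median as deposited was -0.26, against -0.21 for all genes. Gnai2, a Gi subunit through which S1pr1 signals, fell from 199.8 to 149.9 TPM (-0.41, adjusted p = 0.0176), and the transcription factor Stat3 from 23.6 to 16.2 TPM (-0.52, adjusted p = 0.0245). Gpr3, an orphan receptor related to the S1P receptors, was the 1 tested of 4 listed relatives, with a log2 fold change of -0.08, and was not called. The centred medians of the 3 lists were -0.12, 0.02 and -0.01, against 0.04 for all genes. None of the list genes was called in SNI versus JA or PLM versus JA.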

How the data were processed

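The authors trimmed reads with fastp (version 0.19.5 per the labels), aligned them with HISAT2 and estimated expression with StringTie. The authors deposited TPM per locus, rounded, for 9 samples; the unit was read from the column totals. The labels list GRCh38.p13, a human build, while the identifiers are rat Ensembl, so the build used is unclear. TPM keep no depth, and counting precision is unknown. Samples were grouped by their labels.

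Pairs of groups were fitted with limma 3.58.1 (R 4.3.3, variance trend, two-sided, no covariate) on log2(TPM + 1) for loci averaging at least 1 TPM over the 6 samples, with Benjamini-Hochberg adjustment over all loci tested; the fit was tested on simulated data. The study's own calls were made with other software and thresholds. Ratios were compared by exact permutation (scipy 1.17.1). The alternatives were median centring, quantile normalization, rescaling without mitochondrial genes, a pseudocount of 0.1, no filter or a stricter filter, a fit to all 9 samples, a replicate block and leaving out each sample.

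The 9 genes, pathway lists and marker lists were chosen with earlier results of these data known. Named list genes are the 8 with the smallest p among those called in PLM versus SNI; the genes most like S1pr1 and S1pr5 are the 5 with the highest r. Sequence came from RefSeq windows, which held 8 of the 9 genes.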

Additional observations from a re-analysis of the deposited data

How the results depend on the processing

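Beside the values given above, S1pr1 in PLM versus SNI kept its call under every scaling, pseudocount and filter tried and without any 1 sample (log2 fold change from -1.21 to -0.86, limma adjusted p from 0.00287 to 0.0496). In a fit to all 9 samples and with the replicate number as a replicate block, 0 S1P genes were called (S1pr1 adjusted p = 0.0501 and 0.0502). Across genes, the deviations of samples from their group means correlated at -0.05 to 0.13 for same-numbered samples. For samples with different numbers these correlations were -0.19 to 0.14, so the numbers gave no sign of pairing. The block left 151 lower genes. Lower genes in PLM versus SNI numbered 106 after centring, 132 after quantile normalization, 267 without mitochondrial genes, 1237 with no filter, 2177 with a pseudocount of 0.1, 2594 with at least 1 TPM in every sample, 463 with all 9 samples, and 264 (without PLM replicate 2) to 1456 (without SNI replicate 2) when 1 sample was left out, against 2110 in all. Chosen after seeing the data, the centred fit without each sample, with the block (adjusted p = 0.197) and with all 9 samples (0.175) called 0 S1P genes. The other S1P genes were called under no setting; some changed sign. In PLM versus SNI the log2 fold changes of Sphk2, Sgpl1, Sgpp1 and Spns2 turned to 0.024, 0.031, 0.13 and 0.14 after centring and 0.013, 0.033, 0.13 and 0.14 after quantile normalization, and without mitochondrial genes Sgpp1 and Spns2 to 0.027 and 0.036. In SNI versus JA, Sphk2 and Sgpl1 turned to -0.065 and -0.079 after centring, -0.074 and -0.079 after quantile normalization and -0.031 and -0.040 without mitochondrial genes, and Sgpp1 to -0.015 after quantile normalization. In PLM versus JA, S1pr5 and Sphk1 turned to 0.060 and 0.020 after centring. Leaving out 1 sample gave ranges across 0 for S1pr5 in PLM versus SNI (-0.013 to 0.046), for Spns2 (-0.14 to 0.017), Sphk2 (-0.048 to 0.16) and Sgpl1 (-0.053 to 0.12) in SNI versus JA, and for S1pr3 (-0.044 to 0.18), Sgpp1 (-0.059 to 0.052) and Sphk1 (-0.22 to 0.061) in PLM versus JA. The cause was not tested. The TPM give no depth, so what depth limits here is unknown.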

Other observations

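Among the ceramide synthases, chosen here after their values were seen, Cers2, the synthase of very long chain ceramides in myelin, was the most abundant of those tested, at 113.8 ± 8.09 TPM (SD, 3 samples) for SNI against 104.8 ± 6.33 for PLM, and was not called (limma adjusted p = 0.302). Cers1, the synthase of C18 ceramide in neurons, was lower in PLM, at 21.7 ± 3.03 TPM against 32.3 ± 3.45 in SNI (log2 fold change -0.56, adjusted p = 0.0384), but was not called after centring (limma adjusted p = 0.222). Cers5 and Cers4 were at 28.4 ± 0.931 and 7.75 ± 1.46 TPM in PLM and were not called. Sgpp2, the second S1P phosphatase, was at 18.7 ± 1.23 TPM in PLM and 22.8 ± 3.86 in SNI, a level near that of Sgpp1, and was not called (limma adjusted p = 0.188).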
